A study of Mus musculus with 6 samples.

Results

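The 10 genes described here are those that cells commonly switch on when fibroblast growth factor (FGF) receptors signal. They are Etv1, Etv4 and Etv5, Spry1, Spry2 and Spry4, Spred1 and Spred2, Dusp6 and Il17rd. They were chosen by name as FGF feedback and ETS target genes, out of 19060 genes in the count table. All 10 were counted and all 10 passed the filter on low counts.

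An FGF receptor that has bound its ligand passes the signal through adaptor proteins to RAS and on to the kinase ERK. ERK activity raises transcription of the PEA3 group of ETS transcription factors, which carry part of the response, and of several inhibitors that act back on the same route, so RNA of these genes is widely read as a measure of FGF and ERK activity. In the growing mouse incisor, FGF signals pass between dental epithelium and mesenchyme and sustain the stem and transit-amplifying cells at the proximal end.

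RNA was sequenced from the proximal part of the incisor of 1-month-old mice, collected 1 week after tamoxifen. The 3 control samples came from Fgfr1fl/fl mice, which carry floxed alleles of the receptor gene Fgfr1 and no Cre, although their genotype label reads wild type. The 3 mutant samples came from mice with the same floxed alleles and a tamoxifen-inducible Cre made under the Gli1 gene, written Gli1-Cre in the labels and Gli1CreER in the study. Cre therefore acts in Gli1+ cells and their progeny, while the sampled tissue also holds epithelium, differentiated cells, vessels and nerve. The comparison asks whether loss of Fgfr1 in Gli1+ cells alters the RNA of its downstream genes in this tissue. The sources do not say whether a sample was 1 mouse or a pool, so p-values measure the spread between these samples only.

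The mutant libraries were much shallower than the control libraries. Total counts were 32292660, 31060207 and 32712454 in controls 1 to 3, and 5276568, 11819566 and 11358258 in mutants 1 to 3. Of all genes in the table, 3.95%, 3.83% and 3.96% had a count of 0 in the controls, against 30.3%, 17.1% and 19.7% in the mutants. Mutant 1 stood apart as the shallowest library. Some of the S numbers that end the sample names occur in both genotypes, but the sources do not say what these numbers count. Whether both genotypes were sequenced in 1 run is not stated. If they were not, run and genotype cannot be told apart.

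Fgfr1, the deleted gene, was lower in the mutants. Levels are given as CPM, the counts of a gene per 1000000 counts of its library after upper-quartile scaling. Fgfr1 was at 529, 924 and 434 CPM in the controls and at 148, 318 and 262 CPM in the mutants, and the groups did not overlap. The log2 fold change, mutant against control, was -1.37 with a standard error (SE) of 0.40 and a 95% interval from -2.29 to -0.46 (edgeR quasi-likelihood test, adjusted p = 0.0881), past the unadjusted threshold given below but not the adjusted. By the adjusted rule DESeq2 called it (adjusted p = 0.00466) and limma-voom did not (adjusted p = 0.0503). With a correction for gene length and GC content the value was -0.84, still past the unadjusted threshold. The count covers the whole gene and all cells of the sample, including those that Cre did not reach. In such bulk RNA, fewer cells of a type and less RNA per cell cannot be told apart, for Fgfr1 and for every gene that follows.

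None of the 10 FGF feedback and ETS target genes passed the test. At an unadjusted p under 0.05 with a change of over 1.5-fold, 0 of 10 were called, where 19.8% of the 15826 genes tested were called. At an adjusted p under 0.05, 0 of 10 were called, against 6.79% of all genes tested, 3.72% higher and 3.06% lower. By these 2 rules DESeq2 also called 0 of 10, against 20.9% and 11.1% of all genes, and limma-voom 0 of 10, against 23.8% and 8.47%. An unadjusted p under 0.05, with no rule on fold, was likewise found for 0 of 10 members by each tool, against 20.1% of all genes in edgeR, 21.3% in DESeq2 and 24.0% in limma-voom. The smallest p was 0.136 for Spred1 in edgeR, 0.116 for Etv4 in DESeq2 and 0.0672 for Il17rd in limma-voom. The estimates lay below 0 for 7 members and above 0 for 3, and 51.8% of all genes tested lay below 0. The median log2 fold change was -0.28 over the members and -0.04 over all genes tested. A p that misses the threshold does not show that the genotypes were alike, and the intervals below give the changes that these samples leave possible.

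**Figure D1:**
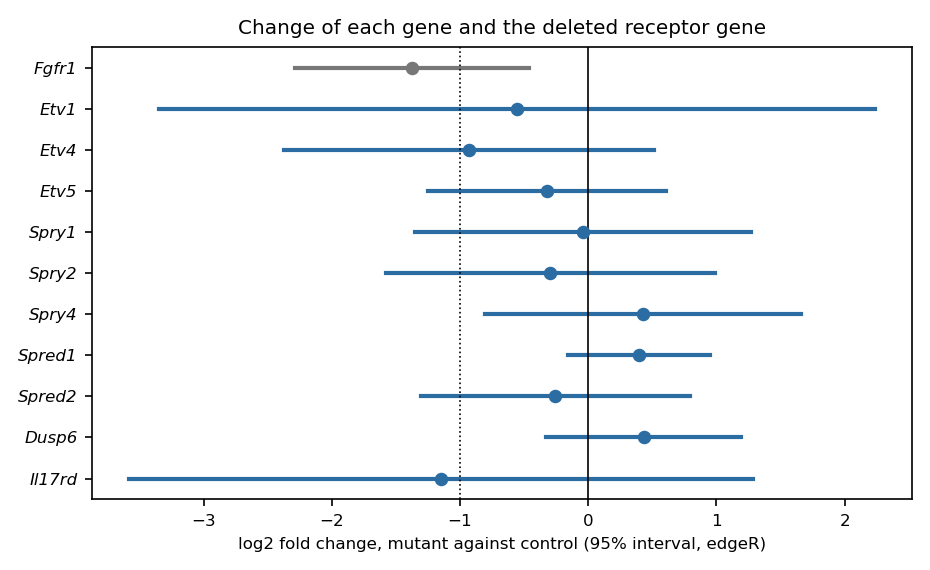
Log2 fold change of the 10 genes and of Fgfr1 (grey) on the horizontal axis, mutant against control, as points with 95% intervals from edgeR (n = 3 in each group). The solid line marks no change and the dotted line a log2 fold change of -1. All 10 intervals cross 0, that of Fgfr1 does not, and those of Spry4, Spred1 and Dusp6 stop short of -1.

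The PEA3 group comes first, as the transcription factors of the response. Its 3 members are close relatives that bind DNA at GGAA cores, and Etv4 and Etv5 are the 2 most often used as readouts of FGF activity. Etv4 (chr11:101769742-101785371, minus strand, build GRCm38, as are all positions here) was at 10.2, 9.92 and 20.2 CPM in the controls and at 5.89, 11.0 and 4.23 CPM in the mutants. Mutants 1 and 3 were below every control, but mutant 2 was within the control range, and control 3 was the only high value. Etv4 thus had a log2 fold change of -0.93 (SE 0.63, 95% interval -2.37 to 0.51, adjusted p = 0.485). It was -0.51 without control 3, -1.43 without mutant 2 and -0.41 with a correction for gene length and GC content. Etv5 (chr16:22381309-22439719, minus strand) was at 28.0, 39.2 and 34.9 CPM in the controls and at 34.9, 33.5 and 13.5 CPM in the mutants. Only mutant 3 was low, and the other mutants lay among the controls. Its log2 fold change was -0.32 (SE 0.40, 95% interval -1.25 to 0.61, adjusted p = 0.745), and it was -0.01 without mutant 3 and -0.55 without mutant 1.

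Etv1 (chr12:38779380-38870484, plus strand) had 6.29, 11.0 and 7.31 CPM in the controls and 0, 9.48 and 7.05 CPM in the mutants. Apart from mutant 1, where no count was recorded, the mutants lay inside the control range. With that zero included, the log2 fold change of -0.56 had an SE of 1.22 and a 95% interval from -3.35 to 2.23 (adjusted p = 0.863). With single samples left out it lay between -1.20 (without mutant 2) and -0.01 (without mutant 1), and it was -2.02 in limma-voom. Summed over the 3 PEA3 genes, the controls had 44.5, 60.1 and 62.4 CPM and the mutants 40.8, 54.0 and 24.8 CPM, with means of 55.7 ± 9.74 and 39.9 ± 14.6 (SD, n = 3). The summed levels overlapped between the groups.

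The Sprouty genes encode membrane-associated inhibitors that receptor signalling induces and that damp the route from receptor to RAS. Their levels overlapped in all 3 cases. Spry1 (chr3:37639947-37644598, plus strand) was at 11.2, 14.9 and 15.5 CPM in the controls and at 23.6, 10.7 and 6.45 CPM in the mutants. The mutants thus held both the highest and the 2 lowest values, and the estimate was near 0, with a log2 fold change of -0.04 (SE 0.57, 95% interval -1.35 to 1.27, adjusted p = 0.980). A gene model on the opposite strand, Gm42922, shares 710 exon bases with Spry1, and the sources do not say whether counting used strand.

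Spry2 (chr14:105891947-105896819, minus strand) was at 10.5, 9.73 and 12.3 CPM in the controls and at 6.77, 12.8 and 6.85 CPM in the mutants. Mutants 1 and 3 were below the controls and mutant 2 was above them. For Spry2 this gave a log2 fold change of -0.30 (SE 0.56, 95% interval -1.58 to 0.99, adjusted p = 0.841). It was between -0.68 (without mutant 2) and -0.15 (without mutant 3) with single samples left out, and -0.80 with the length and GC correction. Spry4 was at 7.52, 9.89 and 9.42 CPM in the controls and at 15.1, 7.77 and 13.3 CPM in the mutants. Here mutants 1 and 3 were above every control, the opposite of Spry2 in the same samples. For Spry4 the log2 fold change was 0.43 (SE 0.54, 95% interval -0.81 to 1.66, adjusted p = 0.746). It was 0.22 without mutant 1, 0.65 without mutant 2, 0.13 with scaling by total counts alone and 0.68 with the length and GC correction. Summed Sprouty levels were 33.7 ± 4.10 CPM in the controls and 34.4 ± 9.79 CPM in the mutants (SD, n = 3).

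**Figure D2:**
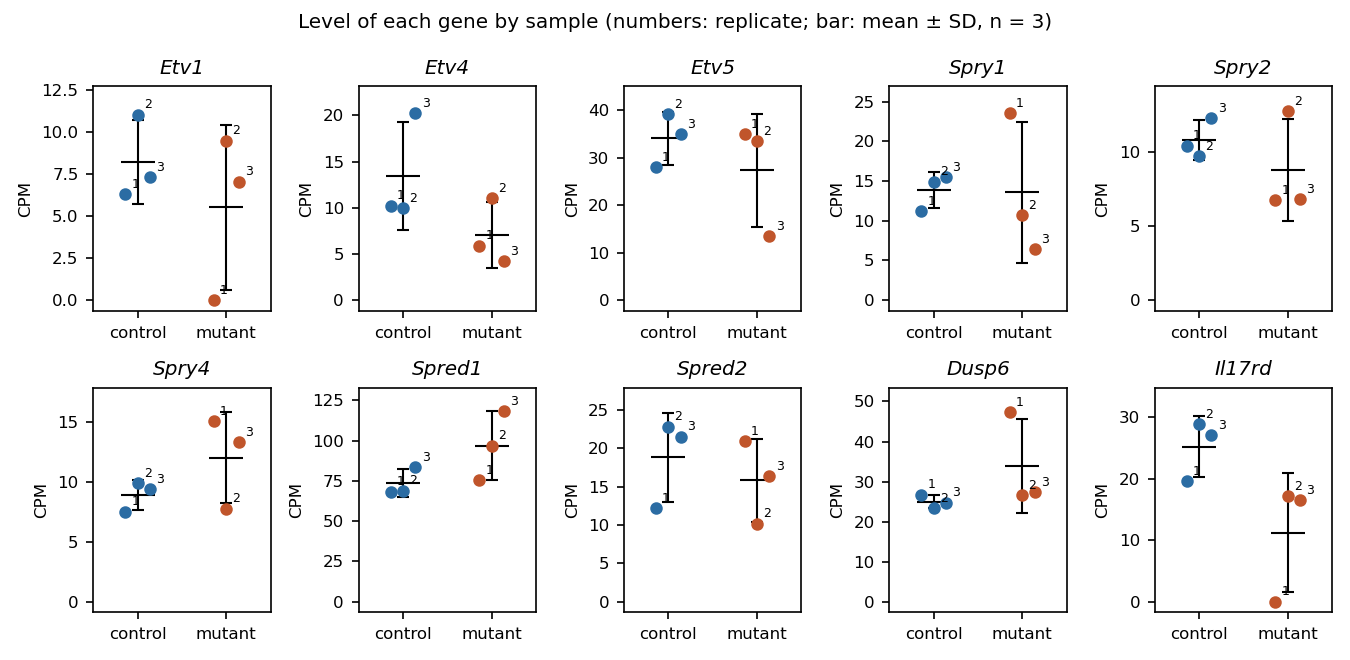
CPM of each gene (vertical axis) in the control (blue) and mutant (orange) samples, with points numbered by replicate and bars for the mean ± SD (n = 3). Mutant 1 holds the highest point for Spry1, Spry4 and Dusp6 and a value of 0 for Etv1 and Il17rd.

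The Spred proteins are relatives of the Sproutys that hold back signalling through RAS, working together with the RAS inhibitor neurofibromin. Spred1 (chr2:117121374-117182279, plus strand) had the highest level per exon length of all members and the narrowest interval. It was at 68.3, 69.0 and 83.4 CPM in the controls and at 75.5, 96.8 and 118 CPM in the mutants. All 3 mutants were above the control mean, yet mutant 1 was below control 3, so the groups overlapped. The log2 fold change was 0.40 (SE 0.24, 95% interval -0.16 to 0.95, adjusted p = 0.421). It was 0.22 without mutant 3, 0.13 with scaling by total counts alone and -0.014 with the length and GC correction, which turned its direction.

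Spred2 (chr11:19924375-20024026, plus strand) was at 12.1, 22.8 and 21.5 CPM in the controls and at 21.0, 10.2 and 16.3 CPM in the mutants. Control 1 and mutant 2 were the low samples, 1 in each group. Between genotypes the log2 fold change was -0.26 (SE 0.46, 95% interval -1.31 to 0.79, adjusted p = 0.831). It was -0.52 without mutant 1, -0.09 without control 2, -0.03 without mutant 2 and 0.020 with the length and GC correction.

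Dusp6 encodes a cytoplasmic phosphatase that removes the activating phosphates from ERK itself, and is among the most direct ERK readouts. Dusp6 (chr10:99263231-99267489, plus strand) was at 26.7, 23.4 and 24.8 CPM in the controls, the tightest values of any member, with a coefficient of variation (CV, the SD as a percentage of the mean) of 6.70%. In the mutants it was at 47.4, 26.6 and 27.4 CPM. Mutant 1 was high, and mutants 2 and 3 were close to the controls and above their mean. The log2 fold change was 0.43 (SE 0.33, 95% interval -0.33 to 1.19, adjusted p = 0.546), and 0.10 without mutant 1.

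Il17rd encodes Sef, a membrane protein that binds FGF receptors and holds back ERK signalling. Il17rd (chr14:27038941-27107286, plus strand) was at 19.6, 28.9 and 27.1 CPM in the controls and at 0, 17.2 and 16.5 CPM in the mutants. It was the 1 member of 10 whose groups did not overlap, with every mutant below every control. Such separation downwards was found for 16.3% of all genes tested, and in either direction for 30.4%. Il17rd had a log2 fold change of -1.15 (SE 1.06, 95% interval -3.58 to 1.29, adjusted p = 0.634). Without mutant 1 it was -0.60, with an edgeR adjusted p of 0.274, and over all alternatives the adjusted p lay between 0.241 and 0.857.

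The 2 zeros of mutant 1, in Il17rd and Etv1, lay far below the counts that its depth would give. At the mean control level, mutant 1 would have held 115.5 counts of Il17rd and 37.6 counts of Etv1, and at the mean level of mutants 2 and 3 it would have held 77.2 and 37.9 counts. Other well-counted genes were at 0 in the same library. Of the 6760 genes with at least 164 counts in each of the other 5 samples, the lowest such count of Il17rd, 80 genes (1.18%) had none in mutant 1. By the same rule 0.0237% of genes were at 0 in mutant 3 and 0% in mutant 2. At the lowest count of Etv1 outside mutant 1, which was 70, 337 of 9419 genes (3.58%) had none in mutant 1. The merged exons of the 80 genes had a median length of 6109 bases against 4632 bases for the 6760 genes. For the 337 genes the median was 5194 bases, against 4611 bases for the 9419 genes. The merged exons of Il17rd and Etv1 were longer still, at 10985 and 13296 bases. Their median transcript lengths were only 3144.5 and 1721.5 bases, that of Etv1 being the shortest of the 10 members. The part of exon length and depth in these zeros was not tested.

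The intervals differed in what they leave possible. For Spry4, Spred1 and Dusp6 the 95% interval did not reach a log2 fold change of -1. For the other 7 members it did, and for Etv1, Etv4, Spry2 and Il17rd it also held -1.37, the uncorrected estimate of Fgfr1 itself. At the upper end, 5 intervals reached 1, those of Etv1, Spry1, Spry4, Dusp6 and Il17rd. The bounds of Dusp6 and Spred1 stayed above -1 in all edgeR alternatives tried, while that of Spry4 passed it in several, as with scaling by total counts alone (-1.08). In the other direction, the intervals of Etv5 and Spred2 stopped just short of -1 with the length and GC correction, as did those of Etv5 (-0.72) and Spry1 (-0.92) without mutant 3. Changes inside these intervals were not excluded by these samples, and the intervals are not a limit of detection. With the control counts thinned to the mean total of the mutants, the intervals were about as wide, as for Spred1 (-0.14 to 0.98) and Etv4 (-2.32 to 0.49). Thinning left the mutant counts as they were, so it did not test the part of depth in their spread.

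Relative to the mean, the spread between mutant samples was larger than between controls for every member, although the SD itself was larger in the controls for Etv4 (5.86 against 3.54 CPM) and Spred2 (5.81 against 5.41 CPM). The median CV was 16.6% in the controls and 41.6% in the mutants. The CV was larger in the mutants for 10 of 10 members, and for 74.8% of the 9047 genes with a mean in the range of the members. Among those genes the median CV was 21.4% in the controls and 38.2% in the mutants. Summed over all 10 members, however, the samples were close, at 200, 239 and 257 CPM in the controls and 230, 236 and 230 CPM in the mutants. A sum of this kind is led by Spred1, which is the most abundant member.

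The members did not move as a block from sample to sample. Over the 45 pairs of members, Pearson's r of log2(CPM + 1) over the 6 samples was positive for 22 and had a median of -0.01. All 6 values of a pair share libraries, genotype and scaling, so these are descriptions only. The samples with extreme values differed by gene. Control 2 was highest for Etv1, Etv5, Spred2 and Il17rd, mutant 1 was highest for Spry1, Spry4 and Dusp6, and mutant 3 was lowest for Etv4, Etv5 and Spry1.

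Levels can be compared between genes only per length. As CPM per kilobase of merged exon (RPKM), the mean control levels were 10.8 ± 1.26 for Spred1, 8.30 ± 1.37 for Etv5 and 7.97 ± 0.53 for Dusp6 (SD, n = 3). Next came Spry2 at 5.19, Spry1 at 4.77, Etv4 at 4.34 and Spred2 at 4.07, followed by Il17rd at 2.29, Spry4 at 1.88 and Etv1 at 0.62. Ranges of neighbours in this order were separate only between Spred1 and Etv5, between Dusp6 and Spry2, and between Spry4 and Etv1. In the mutants the order of mean RPKM was Spred1, Dusp6, Etv5, Spry1, Spry2, Spred2, Spry4, Etv4, Il17rd and Etv1, and the ranges of all neighbours overlapped. With the median transcript length in place of the merged exons, Il17rd moved from 8th to 4th in the controls and Spry2 from 4th to 8th.

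Among the genes whose profile over the 6 samples was most like the mean standardized profile of the members were Lrrc8c (r = 0.960), Prom2 (0.957), Trp73 (0.952) and Frem2 (0.951), out of 9699 genes with a mean of at least 10 CPM. Trp73 encodes a transcription factor of the p53 family and Frem2 a protein of the epithelial basement membrane. The 6 samples share libraries and scaling for all genes, so the likeness is a description of these libraries.

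ETS factors of the PEA3 group bind sequences around a GGAA core, and the promoters of the members were searched for AGGAAG and CCGGAA on both strands. The windows were the 250 bases before the gene starts listed by RefSeq (GRCm38.p6). For 8 of 10 members 10 windows were matched, and Etv4 and Spry4 were without an entry. AGGAAG was present in 3 of 10 windows, those of Dusp6, Spred2 and 1 start of Etv1, and in 29.5% of all 32851 windows. CCGGAA was present in 0 of 10 windows and in 12.0% of all windows. The windows of Dusp6 (chr10:99262981-99263230, plus strand) and Etv1 (chr12:38779832-38780081, plus strand) are shown as examples of an ERK phosphatase gene and of an ETS gene that hold the letters. Capitals mark AGGAAG or its reverse complement, which starts 210 bases before the gene start in Dusp6 and 8 bases before it in Etv1.
Dusp6: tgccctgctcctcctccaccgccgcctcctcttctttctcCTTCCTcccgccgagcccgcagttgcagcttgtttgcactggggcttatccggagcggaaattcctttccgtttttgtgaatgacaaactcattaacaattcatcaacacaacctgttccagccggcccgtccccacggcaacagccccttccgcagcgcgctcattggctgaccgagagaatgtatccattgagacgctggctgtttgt
Etv1: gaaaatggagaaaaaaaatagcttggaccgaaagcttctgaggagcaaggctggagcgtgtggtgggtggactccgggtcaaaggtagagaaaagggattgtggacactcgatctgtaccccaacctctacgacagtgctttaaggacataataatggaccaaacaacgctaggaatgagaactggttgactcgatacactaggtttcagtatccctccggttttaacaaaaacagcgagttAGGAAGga
A match describes these letters only and is not a site, and the share of the members' windows was close to that of all windows.

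The other genes of the FGF route gave the surroundings of the 10 members. Among 82 other pathway genes tested, 13 were lower and 0 were higher past the threshold of an unadjusted p under 0.05 and over 1.5-fold, that is 15.9% lower, where 8.92% of all genes tested were lower and 10.9% higher. Their median log2 fold change was -0.26. These 13 include Fgfr1 itself, and 4 of them were low-count genes at 0 in every mutant. Those 4 passed the filter on low counts through the controls alone, so they could be found only as lower. With a filter on a mean of at least 50 counts they dropped out. Then 9 of 73 other pathway genes were lower and 0 higher, where 7.73% of all genes tested were lower.

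Upstream of the members, the receptors had the lowest median, at -1.11 over 5 genes, with Fgfr1 and Fgfr3 lower and 0 higher. Fgfr3, a receptor found in both epithelium and mesenchyme of many organs, was at 109, 122 and 48.5 CPM in the controls and at 52.6, 57.2 and 19.9 CPM in the mutants (log2 fold change -1.11, SE 0.47, adjusted p = 0.237). Control 3 lay below mutants 1 and 2, so the groups overlapped, and with a correction for gene length and GC content the value was -0.48. Of 11 ligands tested, 0 were higher and 1 was lower, and their median was 0.19. Fgf14, an intracellular member of the FGF family, had 24, 24 and 18 counts in the controls and 0 in every mutant, which is at least 5.47-fold lower against a floor of 3 counts over the mutant group. DESeq2 did not call it. This bound, and those of the other genes at 0 in every mutant, covers counting error only, and mutant 1 also held zeros for genes at far higher counts elsewhere. Fgf1, the most abundant ligand, was at 15.3, 27.9 and 22.0 CPM in the controls and at 13.5, 27.0 and 29.1 CPM in the mutants, with wide overlap.

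In the relay from receptor to ERK, 4 of 26 genes were lower and 0 higher, and 19 of 26 estimates were below 0 (median -0.43). Mapk3, which encodes the ERK1 kinase, was at 130, 109 and 99.2 CPM in the controls and at 51.5, 55.2 and 58.3 CPM in the mutants, with no overlap. Its log2 fold change was -1.03 (SE 0.21, edgeR adjusted p = 0.0458). Rps6ka1 and Rps6ka2, genes of the RSK kinases that ERK activates, were lower by the unadjusted threshold only, with log2 fold changes of -1.23 and -1.55. These 2 fall outside the rule for named genes and were chosen after their values were seen. Hras, the most abundant gene of the relay, gave 0.29 (SE 0.36, adjusted p = 0.745).

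Among other genes that ERK induces, 2 of 13 were lower and 0 higher, with a median of -0.34. Ier3, an immediate early gene, was at 10.1, 7.64 and 7.92 CPM in the controls and at 0, 1.20 and 2.22 CPM in the mutants (log2 fold change -2.86, SE 1.18, edgeR adjusted p = 0.224). By the adjusted rule DESeq2 (0.0346) and limma-voom (0.0468) called it. Egr2, an immediate early transcription factor gene, had 45, 36 and 31 counts in the controls and 0 in every mutant, at least 9.31-fold lower. Ccnd1, the cyclin D1 gene and the most abundant of the list, gave -0.12 (SE 0.28, adjusted p = 0.871).

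Among 10 other feedback regulators 1 was lower and 0 higher, with a median of -0.06. The lower gene was Dusp4, which encodes a nuclear ERK phosphatase. It had 44, 52 and 51 counts in the controls and 0 in every mutant, at least 12.2-fold lower. Such all-zero genes made up 2.39% of all genes tested. Errfi1, an inhibitor of the EGF receptor and the most abundant of the list, gave -0.31 (SE 0.42, adjusted p = 0.760).

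Of 17 ETS factors outside the PEA3 group, 3 were lower and 0 higher, with a median of -0.39. Ets2, the most abundant, was at 86.2, 104 and 105 CPM in the controls and at 76.4, 48.9 and 54.4 CPM in the mutants (log2 fold change -0.72, SE 0.25, adjusted p = 0.142). Its groups did not overlap, and with the length and GC correction the value was -0.35. Spib, a lymphoid ETS factor, had 32, 73 and 136 counts in the controls and 0 in every mutant, at least 20.0-fold lower. Elk1, a partner of serum response factor that ERK phosphorylates, gave -1.79 (SE 0.61, adjusted p = 0.142) and was also chosen after its value was seen.

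**Figure D3:**
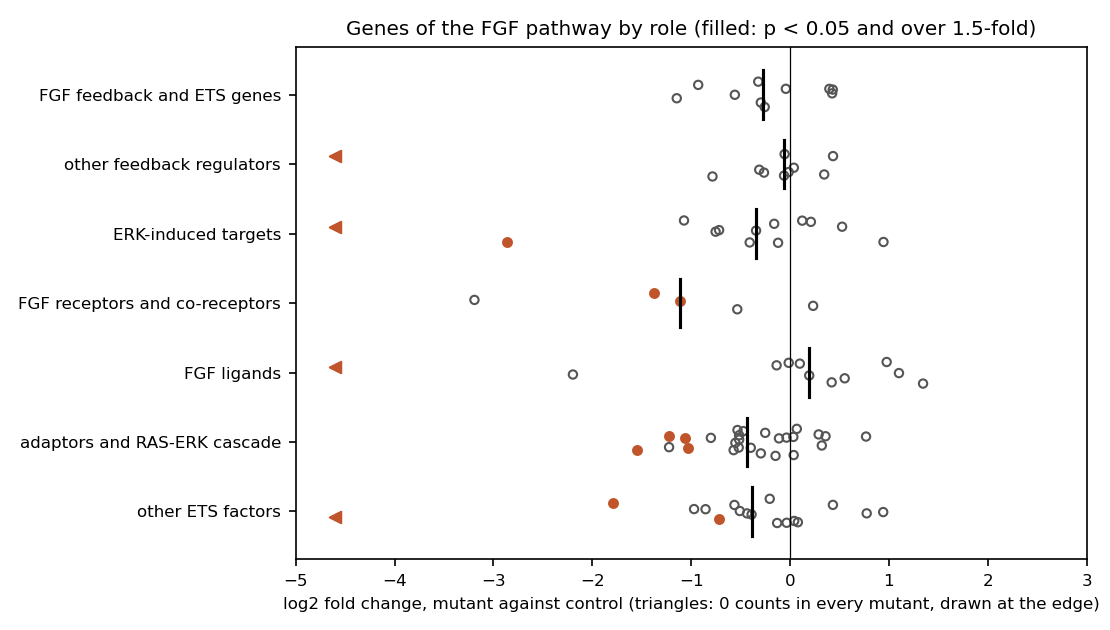
Log2 fold change, mutant against control (horizontal axis), of each tested gene of the FGF pathway, grouped by role, with black bars at the medians. Filled points passed an unadjusted p under 0.05 and over 1.5-fold, triangles are genes at 0 in every mutant, drawn at the left edge without their value, and none of the 10 FGF feedback and ETS genes is filled.

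Markers of the cell types in the sample were read beside these values. Dental epithelium, where FGF receptors and their feedback genes are also active, had summed marker levels of 2151, 2226 and 4321 CPM in the controls and 2131, 1950 and 2077 CPM in the mutants (9 genes, led by Krt5). These sums did not overlap, though mutant 1 lay close below control 1, and 1 of the 9 genes was called lower, by the unadjusted threshold only (Krt15, named after its value was seen), and 0 higher. Control 3 was high in these epithelial markers and was also the sample with the highest Etv4. Ameloblast markers (7 genes, led by Amelx) were at 85937, 97972 and 120405 CPM against 35139, 34717 and 74834 CPM, without overlap, a sum that is mostly Amelx and Ambn. Of the 7 genes 0 were called lower, Amelx included (log2 fold change -1.23, SE 0.67, adjusted p = 0.370), and 2 were called higher, Odam (1.76, SE 0.42, adjusted p = 0.0466) and Amtn (0.91, SE 0.35, adjusted p = 0.190), the latter by the unadjusted threshold only. These 2 were chosen after their values were seen. With the length and GC correction the calls turned round, with 4 of the 7 lower past the unadjusted threshold (Amelx at -2.20, Ambn, Enam and Mmp20) and 0 higher, Odam at 0.55 and Amtn at -0.29. Dental mesenchyme markers (9 genes, led by Vim) were at 2151, 2113 and 1488 CPM against 2377, 1838 and 1660 CPM. Gli1, the gene that drives Cre, was at 22.6, 23.8 and 33.4 CPM in the controls and at 10.9, 24.6 and 22.8 CPM in the mutants. All marker genes of epithelium, ameloblasts, odontoblasts and mesenchyme were detected, so no defining marker of the labelled tissue was at 0 throughout.

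Markers of skeletal muscle and mitochondrially encoded RNA also differed between samples. Skeletal muscle markers (6 genes, led by Acta1) were at 6.53, 2324 and 22.6 CPM in the controls and at 4100, 124 and 693 CPM in the mutants, high in control 2 and mutant 1. Control 2 was the highest sample for 4 members and the lowest for 1 (Dusp6), and mutant 1 was the highest for 3 members and the lowest for 3 (Etv1, Spry2 and Il17rd). The 13 mitochondrially encoded genes, led by mt-Co1, summed to 7033, 6099 and 6928 CPM in the controls and to 76499, 43284 and 64933 CPM in the mutants. All 13 were higher in the mutants at an adjusted p under 0.05, as were 3.72% of all genes tested. With the length and GC correction all 13 estimates stayed above 0 but were smaller, from 0.67 (mt-Nd6) to 4.27 (mt-Atp8), with 11 past the unadjusted threshold and 1, mt-Atp8, at an adjusted p under 0.05. The part of epithelial share, muscle, mitochondrial RNA and depth in the members' values was not tested.

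Among further cell types, odontoblast markers (5 genes, led by Bglap) averaged 9297 CPM in the controls and 9235 CPM in the mutants, and macrophage markers (8 genes, led by Lyz2) 337 and 379 CPM. Endothelial markers (6 genes, led by Cdh5) averaged 211 and 148 CPM, Schwann cell markers (6 genes, led by Mbp) 39.5 and 59.8 CPM, osteoclast markers (5 genes, led by Ctsk) 194 and 361 CPM, and erythroid markers (5 genes, led by Hbb-bs) 675 and 1591 CPM. The lists of odontoblast, macrophage, Schwann cell and osteoclast markers overlapped between the groups in summed level, whereas those of endothelium and erythroid cells did not. The endothelial sums nearly met, at 169.5 CPM in control 1 and 167.0 CPM in mutant 1, and 0 of the 6 genes were called. All 5 osteoclast estimates were above 0. Ctsk was called higher by the unadjusted threshold only (log2 fold change 1.02, SE 0.43, edgeR adjusted p = 0.228). With the length and GC correction Ctsk was at 0.29 and no longer called. The erythroid genes did not all follow their sum, since Hba-a1 was lower (log2 fold change -2.04, SE 0.42, adjusted p = 0.0460) while Hba-a2 and Hbb-bs were higher by the unadjusted threshold, calls that were lost with the length and GC correction (0.10 and 0.65). Hba-a1 and Hba-a2 are near-identical copies whose reads counting could split, so both are uncertain, and the 3 genes were named after their values were seen.

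**Figure D4:**
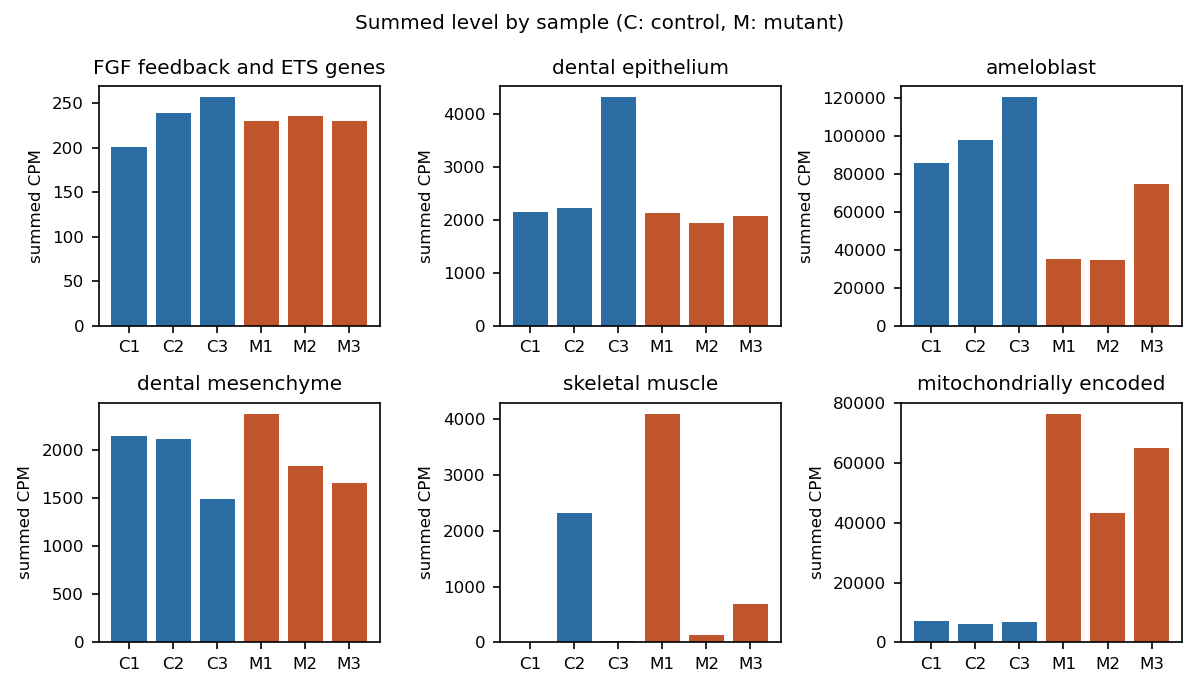
Summed CPM (vertical axis, from 0) in each sample, controls C1 to C3 in blue and mutants M1 to M3 in orange, for the 10 FGF feedback and ETS genes and for lists of marker genes. The 10 genes lie between 200 and 257 CPM in all samples, while mitochondrially encoded RNA is at 43284 CPM or more in the mutants and at 7033 CPM or less in the controls.

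The directions of single members depended little on scaling but did depend on samples and on a correction for gene length and GC content. Spry4 and Dusp6 had estimates above 0, and Etv1, Etv4, Etv5, Spry2 and Il17rd below 0, in all 17 alternatives. Spry1, Spred1 and Spred2 changed sign in at least 1 of them. With the length and GC correction the median of the members was -0.07, and with mutant 3 left out it was -0.08. Il17rd spanned the widest range, from -2.77 in limma-voom to -0.60 without mutant 1.

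**Figure D5:**
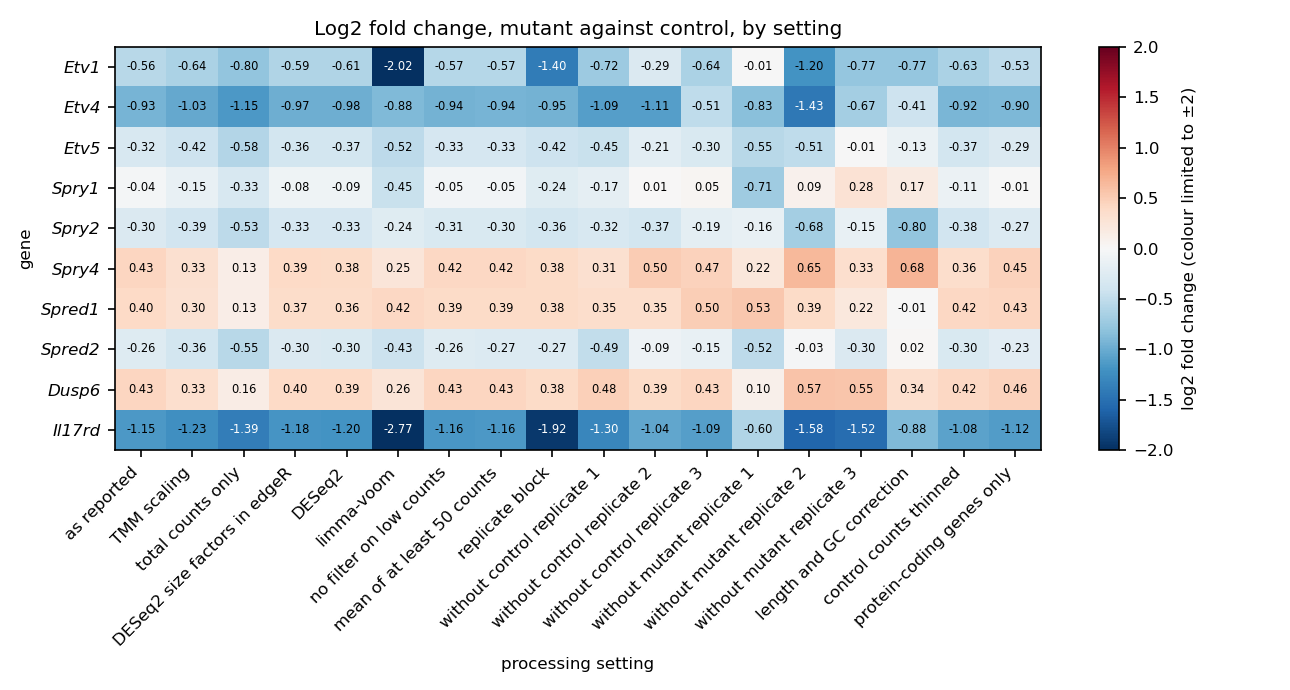
Log2 fold change of each gene (rows), mutant against control, as reported and in 17 alternatives (columns), printed and coloured from blue (below 0) to red (above 0). No value passed an unadjusted p under 0.05 with over 1.5-fold, and the darkest cells are those of Il17rd and Etv1 in limma-voom.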

How the data were processed

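The authors trimmed and aligned single-end reads in Partek Flow to mm10. The values the authors deposited are estimated counts, 1 per gene and sample, before any scaling. They are labelled as filtered by feature, so shares of all genes refer to the genes that were kept. Of 22 listed FGF ligands, 13 were among them. The submitters' processing notes name TopHat2 2.0.8 and mm10. The counting model, the annotation and the strand setting are not given in the sources used here. The authors' comparison table holds p-values, fold changes and group means and was not used.

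Counts were rounded to whole numbers, filtered with filterByExpr (minimum count 10, minimum total 15), scaled by the upper quartile and tested with edgeR 4.0.16 (two-sided quasi-likelihood test, genotype as the only term, R 4.3.3), with Benjamini-Hochberg adjustment over 15826 genes. Intervals of 95% were computed from the SE and the t distribution of the moderated fit. DESeq2 1.42.0 and limma 3.58.1 (limma-voom) were alternatives, and the scripts were tested on simulated data. The simulated spread between samples was smaller than in these data, so that test does not show what change could be found in the members. Exon lengths and positions came from a GENCODE annotation of GRCm38, to which 18637 of 19060 symbols matched and 423 did not. For a gene at 0 in every mutant, folds were bounded with a floor of 3 counts over the 3 mutant libraries together (0.114 CPM). For a zero in mutant 1 alone, 3 counts in that library equal 0.655 CPM. Both cover counting error only.

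Samples were grouped by the genotype labels. All 10 members and Fgfr1 were named, and from each other list the 2 called genes with the smallest p in each direction and the gene with the highest mean CPM, called the most abundant. From the marker lists the most abundant gene was named. Some genes that these rules select are not reported here. The members and all lists were chosen with earlier results of these data known.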

Additional observations from a re-analysis of the deposited data

How the results depend on the processing

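The 10 FGF feedback and ETS genes gave 0 calls in all 17 alternatives, by either threshold. Of 170 values of single members, 163 kept their sign and 7 reversed it, all below the threshold. Spry1 was 0.015 without control 2, 0.046 without control 3, 0.092 without mutant 2, 0.28 without mutant 3 and 0.17 with the length and GC correction, and it ranged from -0.71 (without mutant 1) to 0.28 with single samples left out. Spred1 was -0.014 and Spred2 0.020 with that correction, which was chosen after seeing the data, as were thinning of the control counts and the restriction to protein-coding genes. The cause of these reversals was not tested.

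Of the other pathway genes, 13 were lower as reported, where 8.92% of all genes tested were. The count was 25 with scaling by total counts alone (14.8% of all genes), and from 8 (without control 3, 4.97%) to 23 (without mutant 2, 16.5%) when single samples were left out, where the filter also let other numbers of genes through. The count of higher genes was 1 in DESeq2 and from 0 to 1 with single samples left out. Without mutant 1 the counts were 16 lower, against 14.5% of all genes tested, and 1 higher. Fgfr1 and Mapk3 passed the unadjusted threshold in all 17 alternatives, whereas Fgfr3 missed it in 6, Ier3 in 5, Ets2 and Rps6ka2 in 4 each, Rps6ka1 in 3, Elk1 in 2 and Fgf14 in 2 of the 12 in which it could be fitted, DESeq2 and the replicate block. The edgeR, DESeq2 or limma-voom adjusted p of Mapk3 ranged from 0.000178 to 0.190. With total counts alone the median log2 fold change of all genes was -0.30 and that of the members -0.54, and in limma-voom they were -0.29 and -0.44. The members' median minus that of all genes was -0.24 as reported, and with single samples left out it ranged from -0.39 (without control 1) to 0.02 (without mutant 3).

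Replicate numbers appear in both genotypes, but same-numbered samples hardly deviated together (correlations of 0.0472, 0.00937 and 0.0548), and although the methods speak of pairs of samples, no source says what the numbers pair. With the replicate block 0 members were called. Of 82 other pathway genes, 11 were then lower past the unadjusted threshold and 0 higher, where 7.84% of all genes tested were lower. Dusp4, Egr2, Ier3 and Fgf14 no longer passed with this block, and Il17rd was at -1.92 and Etv1 at -1.40. The part of depth in the spread of the mutants was not tested, since thinning changed the control counts only.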
